A study of Mus musculus with 6 samples.

Results

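Wounded mouse corneas treated with RNase III, an enzyme that cuts double-stranded RNA, were compared with wounded corneas that had no RNase III. The comparison covered every gene with at least 1 TPM in at least 2 of the 4 libraries, which gave 13672 of the 54446 gene rows. TPM is the share of a library that a gene takes up after correction for transcript length. All mice were wild-type C57BL/6 at 6 weeks of age, and total RNA of the cornea was sequenced in 3 groups of 2 libraries (unwounded, wounded, and wounded with RNase III). In the wound model a piece of the limbus, the stem cell rim of the cornea, was cut away together with corneal epithelium and some of the underlying stroma, and RNase III was given as an injection under the conjunctiva. The labels do not state the dose, the time of sampling or any control injection into the other wounded eyes, and effects of injecting and of the enzyme cannot be told apart. The labels tie no library to a separate animal or pool, so the p-values below measure only the spread between these samples, which may in part be technical.

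Double-stranded RNA is formed by viruses and is also released from damaged cells. Tlr3 detects it in endosomes, and Ddx58 and Ifih1 detect it in the cytosol and signal through the adaptor Mavs. These routes switch on Irf3 and NF-kappaB, which start the transcription of interferon beta and of chemokines; interferon beta then drives the interferon-stimulated genes. The cornea is an epithelium on a stroma of collagen made by keratocytes, and after an injury it fills with neutrophils and monocytes that come from the vessels of the limbus. The title of the series joins double-stranded RNA, interferon beta and the collagenase Mmp13 to the healing of this tissue.

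The 4 libraries had between 16751 and 20551 genes above 0 TPM, with the lowest number in RNase III replicate 1. The depth is unknown, since TPM does not hold it, and counting intervals cannot be given. Across the 13672 genes the Pearson correlation of log2(TPM + 1) was 0.952 between the wounded replicates and 0.937 between the RNase III replicates. Between groups it ran from 0.915, for both replicates 1, to 0.951, for both replicates 2, and genes are not independent replicates. The corneal keratin gene Krt12 stood at 11217 and 17088 TPM without and 17347 and 11259 TPM with RNase III, so the marker of the tissue was high in all 4 libraries. Marker lists of other cells set libraries apart: the summed TPM of 20 neutrophil markers was 9710 in wounded replicate 1 against 652 to 1630 in the other 3 libraries, and that of 14 lens markers was 4847 in RNase III replicate 2 against 258 to 664. Their part in the results was not tested, and list medians that move by over 1.5 times without 1 library are given with that library. The unwounded libraries, which lend their spread to the test, came from animals of different sex: replicate 1 had 39.56 TPM of Xist and 0 of Ddx3y, and replicate 2 had 0 of Xist and 26.01 TPM of Ddx3y. The other 4 libraries had 12.66 to 16.65 TPM of Ddx3y, a gene of the Y chromosome, and at most 0.7 TPM of Xist, the RNA of the silent X chromosome.

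No gene passed the test. With limma on log2(TPM + 1), fitted over the 13672 genes with the unwounded libraries lending their spread, 0 genes were higher and 0 lower at an adjusted p under 0.05 (0.0% each way). The smallest adjusted p was 0.113, for Trf. At an unadjusted p under 0.05 there were 1158 higher genes, or 8.47%, and 660 lower genes, or 4.83%. Fitted on the 4 wounded libraries alone, limma again called 0 genes each way, with 590 higher and 459 lower at an unadjusted p under 0.05. An exact permutation of 2 against 2 samples cannot go below a two-sided p of 0.333. What follows is therefore a description of separation and of fold size, and no gene is said to have changed.

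Separation was common and mostly small. Both RNase III libraries lay above both wounded libraries for 3730 genes (27.3%) and below both for 1864 genes (13.6%). The median difference of the separate genes was 0.51 on the log2(TPM + 1) scale for the higher ones and -0.66 for the lower ones. The excess of higher genes depended on scale: the median difference of all genes was 0.11, and with median-of-ratios scaling, which moved that median to 0.00, the split was 2913 higher (21.3%) and 2701 lower (19.8%). Differences can be read against that shift of 0.11. The shift varied with the libraries: it was 0.04 without wounded replicate 1, 0.19 without wounded replicate 2, 0.22 without RNase III replicate 1 and 0.00 without RNase III replicate 2.

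Large differences leaned to lower values. A difference of group means of 2-fold or more on the TPM + 1 scale was seen for 379 higher genes (2.77%) and 649 lower genes (4.75%), and after scaling for 263 and 824. Of these 1028 genes, 805 had separate groups. The gap, defined as the smallest of the 4 differences between an RNase III and a wounded library, reached 2-fold for 52 higher genes (0.38%) and 134 lower genes (0.98%). It reached 4-fold for 3 higher and 16 lower genes. Of the 13672 genes, 30 were listed at 0 in both RNase III libraries and 8 in both wounded libraries. At the edge of the filter, 181 genes had a second-highest value from 1 to 1.1 TPM and 220 genes, left out, had one from 0.9 to 1 TPM. The filter lets in 207 genes only through the wounded libraries and 83 only through the RNase III libraries, and those genes had to differ. Hist2h2aa2, Snurf, Cd72, Spink2, Vwf, Cnn1, Sfrp2 and Rpe65, named below, passed only through the wounded libraries. Cryga passed only through the RNase III libraries. For these genes separation is no result, and the list counts below include any members of this kind.

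**Figure D1:**
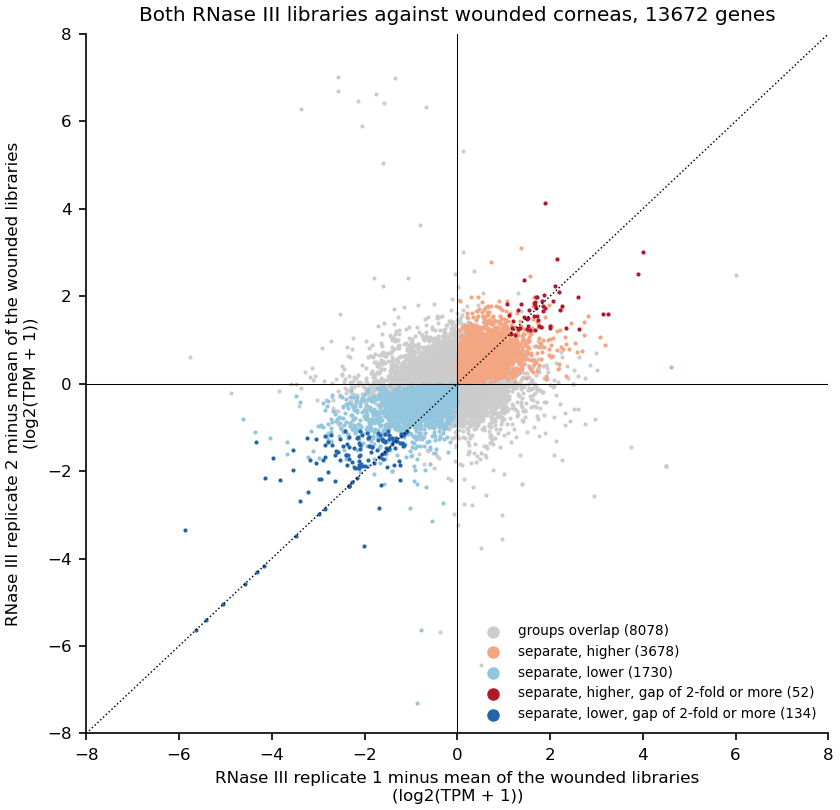
Each point is 1 of 13672 genes, with the log2(TPM + 1) difference of RNase III replicate 1 from the mean of both wounded libraries on the x axis and that of replicate 2 on the y axis; the dotted line marks equal differences. The 52 dark red and 134 dark blue genes have a gap of 2-fold or more, and lie toward the diagonal corners, while genes far out along 1 axis alone are differences of a single library.

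Direction also followed transcript length. In 5 equal bins of the protein-coding genes by their longest annotated transcript, the share with both RNase III libraries higher went from 11.3% in the shortest bin (204 to 1907 bases) through 20.8%, 30.4% and 36.6% to 42.8% in the longest (5168 to 40378 bases). The share with both lower went the other way, from 25.6% to 6.92%. The median difference was -0.13 in the shortest bin and 0.28 in the longest. The same order held for each RNase III library against each wounded library, with medians from -0.24 to 0.02 in the shortest bin and from 0.11 to 0.48 in the longest. The median of all genes was 3165 bases, and list medians are given for comparison. Among lists with higher values described below it was 4236 bases for clock genes, 3469 for limbal and eye transcription factors and 3367 for junctions. Among those with lower values it was 2814.5 bases for keratocyte markers, 2751 for complement, 2682 for class II, 2619 for class I and 2232.5 for plasminogen and serpin genes. It was 1735 bases for T and NK cell markers and 1669 for dendritic cell markers. The part of length in the results was not tested.

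**Figure D2:**
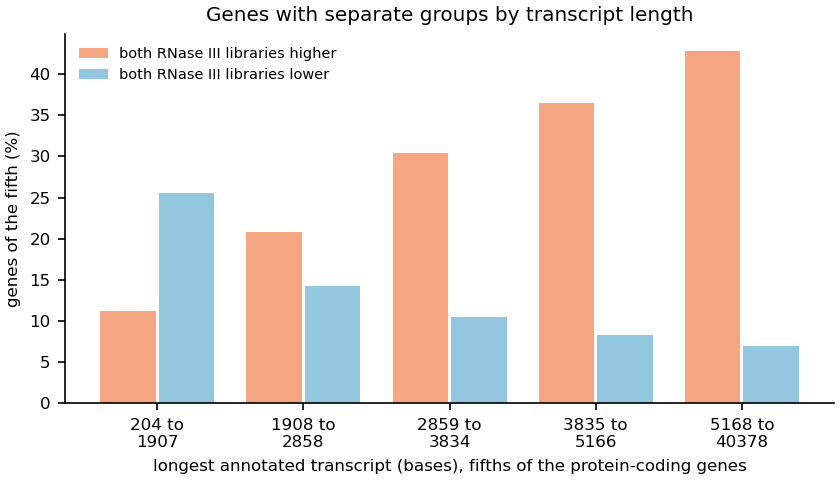
Bars give the percentage of protein-coding genes with both RNase III libraries above (orange) or below (blue) both wounded libraries, for 5 equal bins of the longest annotated transcript in bases. The higher share climbs from 11.3% to 42.8% while the lower share drops from 25.6% to 6.92%.

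The genes of the series title did not separate. The interferon beta gene Ifnb1, on the minus strand of chromosome 4 (88522025 to 88522774 in GRCm38; ENSMUSG00000048806), had 0 TPM listed in each of the 4 columns. The collagenase gene Mmp13, on the plus strand of chromosome 9 (7272514 to 7283331; ENSMUSG00000050578), had 118.3 and 32.46 TPM without and 27.92 and 33.18 TPM with RNase III. Both RNase III values lay beside wounded replicate 2, and wounded replicate 1 stood alone above them. The Mmp13 difference of -1.01 (SE 0.55, limma adjusted p = 0.464) was -0.09 without wounded replicate 1.

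Genes that detect or process double-stranded RNA were near the background as a list. Of 25 measured, 9 were separate higher (36.0%, against 27.3% of all genes) and none lower, and, scaled, 5 were separate higher (20.0%, against 21.3%) and 1 lower. The median difference of 0.22 was 0.10 scaled, -0.02 without RNase III replicate 2, 0.52 without RNase III replicate 1 and 0.10 without wounded replicate 1. Mavs, the adaptor of the cytosolic sensors, had 10.41 and 15.31 against 26.77 and 24.11 TPM, a difference of 0.95 (SE 0.24, adjusted p = 0.28). Tlr3 had 6.91 and 11.06 TPM without and 23.72 and 12.63 TPM with RNase III, and its groups were only 0.18 apart. The RNA helicase gene Dhx9 went from 32.64 and 38.34 to 47.22 and 57.54 TPM. Irf3 did not separate, with 59.43 and 55.96 against 47.7 and 56.21 TPM. The members of this list have long transcripts, with a median of 4150 bases against 3165 for all genes.

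The response to double-stranded RNA works through short promoter motifs. Promoters of some of the genes described in this text are printed here, among them that of the clock gene Tef. Only promoters that hold the marked motif were printed, and several of these genes did not separate. Each stretch is the 220 bases before the transcription start, from RefSeq on GRCm38.p6, read 5′ to 3′ on the strand of the gene. Capitals mark the interferon-stimulated response element, searched as GAAANNGAAA, in the first 5 stretches. In B2m and the last 3, capitals mark the NF-kappaB form GGGANTTTCC (B2m, Il6, Cxcl3) and the clock E-box CACGTG (Tef); both strands were searched and no marked motifs of different kinds overlap.
Mmp13, chr9:7272294-7272513, plus strand: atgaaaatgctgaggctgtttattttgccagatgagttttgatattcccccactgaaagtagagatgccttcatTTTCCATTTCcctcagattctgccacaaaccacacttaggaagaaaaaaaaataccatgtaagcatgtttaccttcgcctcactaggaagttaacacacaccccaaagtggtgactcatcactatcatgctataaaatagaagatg
Isg15, chr4:156200819-156201038, minus strand: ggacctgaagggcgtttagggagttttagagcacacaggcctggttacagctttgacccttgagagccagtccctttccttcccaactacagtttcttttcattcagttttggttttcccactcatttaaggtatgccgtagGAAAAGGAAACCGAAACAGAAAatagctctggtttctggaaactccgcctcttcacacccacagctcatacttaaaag
Rsad2, chr12:26456453-26456672, minus strand: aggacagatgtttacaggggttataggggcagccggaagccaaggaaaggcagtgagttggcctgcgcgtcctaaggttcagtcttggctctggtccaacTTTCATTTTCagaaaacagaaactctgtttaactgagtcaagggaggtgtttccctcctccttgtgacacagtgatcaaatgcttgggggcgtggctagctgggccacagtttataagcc
Cxcl10, chr5:92348890-92349109, minus strand: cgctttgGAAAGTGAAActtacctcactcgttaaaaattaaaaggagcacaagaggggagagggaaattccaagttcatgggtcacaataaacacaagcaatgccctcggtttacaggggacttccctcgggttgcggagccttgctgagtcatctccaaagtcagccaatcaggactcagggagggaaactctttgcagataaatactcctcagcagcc
B2m, chr2:122147467-122147686, plus strand: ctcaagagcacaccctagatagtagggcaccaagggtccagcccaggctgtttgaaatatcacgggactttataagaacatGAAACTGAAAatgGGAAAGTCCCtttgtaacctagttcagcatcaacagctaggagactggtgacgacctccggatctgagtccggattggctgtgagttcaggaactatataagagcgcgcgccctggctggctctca
Il6, chr5:30012894-30013113, plus strand: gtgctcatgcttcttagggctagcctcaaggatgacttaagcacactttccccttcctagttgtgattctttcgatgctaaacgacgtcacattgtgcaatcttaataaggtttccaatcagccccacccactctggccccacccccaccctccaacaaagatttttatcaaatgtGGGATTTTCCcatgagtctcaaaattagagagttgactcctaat
Cxcl3, chr5:90785881-90786100, plus strand: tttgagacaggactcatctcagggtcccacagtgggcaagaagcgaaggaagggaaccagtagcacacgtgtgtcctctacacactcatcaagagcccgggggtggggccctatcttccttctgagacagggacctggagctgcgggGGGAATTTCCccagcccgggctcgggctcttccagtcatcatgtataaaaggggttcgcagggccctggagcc
Tef, chr15:81802453-81802672, plus strand: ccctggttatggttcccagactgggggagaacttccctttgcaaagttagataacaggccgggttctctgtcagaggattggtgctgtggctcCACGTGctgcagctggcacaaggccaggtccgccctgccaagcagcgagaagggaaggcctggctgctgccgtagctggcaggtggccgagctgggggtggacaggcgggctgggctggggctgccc
Windows of 300 bases, 250 before and 50 after the start, were on hand for 10274 of the 13672 genes. The interferon element was found in 3.92% of these genes, in 17 of 32 interferon-stimulated genes and in Mmp13, where it begins 146 bases before the start. Isg15 carries 3 overlapping matches. The NF-kappaB form was found in 0.545% of genes and in 5 of 21 cytokine and chemokine genes, and the E-box in 11.6% of genes and 5 of 16 clock genes. A match is a description of the letters and does not show binding. Isg15, Rsad2, Cxcl10 and Il6, like Col3a1, Postn, Ly6c2, Il33 and Notch3 below, were chosen for mention after their values were seen.

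Interferon-stimulated genes differed in sign between the RNase III replicates. The median of 43 measured members was -1.29 in replicate 1 against the wounded mean and 0.40 in replicate 2. The median group difference was -0.46, and it was -0.86 without wounded replicate 1 and -0.01 without wounded replicate 2. Of the members 3 were separate higher (6.98%, against 27.3% of all genes) and 6 separate lower (14.0%, against 13.6%). Isg15, a ubiquitin-like protein with 3 response elements above, had 524.57 and 1042.3 TPM without and 228.09 and 714.9 TPM with RNase III. Rsad2, an antiviral enzyme gene, had 17.52 and 21.8 against 3.06 and 22.07 TPM. Both thus overlapped, with RNase III replicate 2 inside or above the wounded range. Ifi27l2a, a small mitochondrial protein gene, had the widest gap of the list. Ifi27l2a had 517.2 and 823.34 TPM in wounded, 45.4 and 141.24 TPM in RNase III and 66.52 and 43.09 TPM in unwounded corneas, a difference of -3.01 (SE 0.53, adjusted p = 0.273). Mx1 and Mx2, genes of the Mx GTPase family, were lower in both RNase III libraries. Mx1 had 4.59 and 10.11 against 0.19 and 2.18 TPM, and Mx2 had 6.1 and 9.84 against 0.13 and 3.46 TPM. Ly6e went the other way, with 1308.7 and 1112 against 1698.4 and 1576.9 TPM.

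Several genes of antigen presentation had lower values in both libraries. Of 21 genes of the interferon gamma type and of class II presentation 9 were separate lower (42.9%, against 13.6% of all genes) and 1 separate higher, with a median of -0.65 that was -0.26 without RNase III replicate 1 and -1.09 without RNase III replicate 2. H2-Aa, a class II chain, had 43.38 and 40.52 TPM without and 6.6 and 20.38 TPM with RNase III, and Cd74, its chaperone, 82.61 and 94.89 against 17.57 and 42.63 TPM. The unwounded libraries had 37.51 and 21.23 TPM of H2-Aa and 90.42 and 42.93 TPM of Cd74, with replicate 1 near the wounded values and replicate 2 near RNase III replicate 2. Cxcl10, a chemokine with 1 response element, had 22.08 and 47.73 against 5.53 and 14 TPM. Of 18 class I and immunoproteasome genes 7 were separate lower (38.9%, against 13.6% of all genes) and none separate higher. Their median of -0.26 was 0.13 without RNase III replicate 1, -0.65 without RNase III replicate 2, -0.41 without wounded replicate 1 and -0.12 without wounded replicate 2. B2m, the light chain of class I, had the widest gap of these, with 1201.3 and 1248.5 TPM without and 348.82 and 765.95 TPM with RNase III (difference -1.24, SE 0.36, adjusted p = 0.293). In each of these genes RNase III replicate 1 was the lowest library among those of wounded corneas with and without RNase III.

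**Figure D3:**
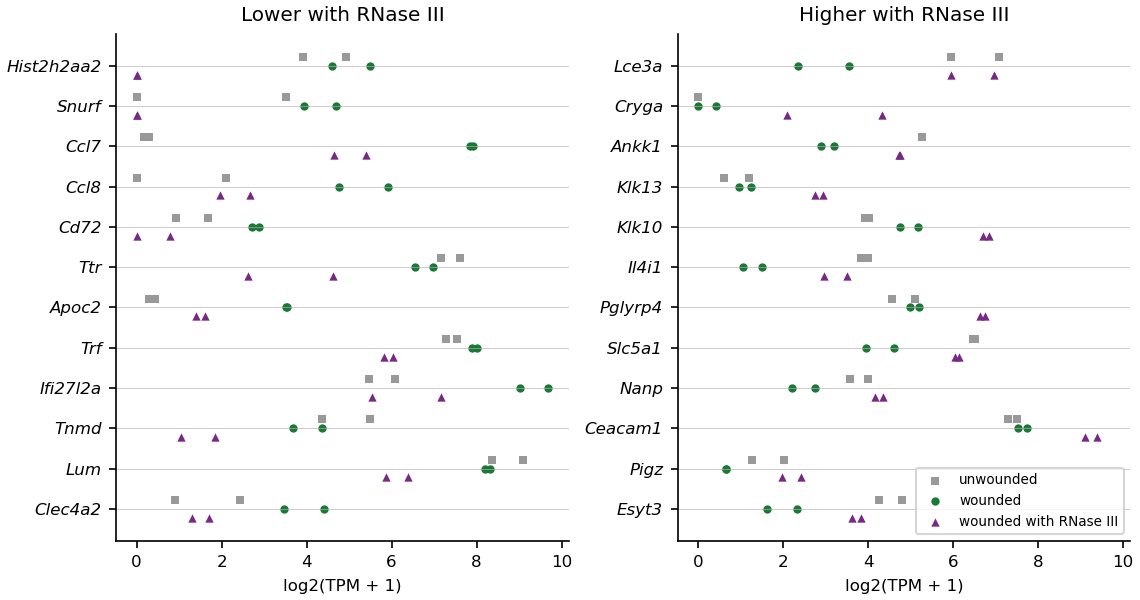
Points give log2(TPM + 1) of each library for the 12 genes with the largest gap in each direction: unwounded (grey squares), wounded (green circles) and wounded with RNase III (purple triangles). Purple and green do not overlap in any gene, and grey lies on the wounded side for some genes, such as Lum, and on the RNase III side for others, such as Ankk1.

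Chemokine genes were among the largest gaps. Ccl7, which draws monocytes, had 240.9 and 228.16 TPM in wounded, 24.19 and 41.05 TPM in RNase III and 0.23 and 0.13 TPM in unwounded corneas. Its difference was -2.85 (SE 0.29, adjusted p = 0.131), and the nearest pair of libraries was still 2.45 apart. Ccl8, a related chemokine, had 59.83 and 26.1 against 2.89 and 5.32 TPM, and Ccl9 68.11 and 87.56 against 15.72 and 27.11 TPM. Il6, the interleukin with the NF-kappaB form close to its start, had 19.29 and 17.07 against 5.46 and 6.69 TPM (difference -1.44, SE 0.29). Cxcl3, a neutrophil chemokine with the same motif, had 401.9 and 143.57 against 223.15 and 212.61 TPM and did not separate. Over 33 measured cytokines and chemokines 15 were separate lower (45.5%, against 13.6% of all genes) and 1, Il33, separate higher, with a median of -0.85 that was -0.32 without wounded replicate 1. Cytokine transcripts are short, with a median of 1639 bases.

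Other genes with a large gap to lower values have varied functions. Trf, the iron carrier transferrin, had 238.12 and 255.46 TPM in wounded, 55.72 and 64.23 TPM in RNase III and 153.42 and 184.35 TPM in unwounded corneas, a difference of -2.03 (SE 0.19). Replicates differed by less than 10 TPM in RNase III and by less than 20 TPM in wounded corneas. Apoc2, an activator of lipoprotein lipase, had 10.35 and 10.61 against 1.62 and 2.03 TPM. Ttr, a carrier of thyroid hormone and retinol, had 93.44 and 124.78 against 5.19 and 23.44 TPM. Tnmd, a membrane protein of tendon and other dense connective tissue, had 19.71 and 11.82 against 1.05 and 2.59 TPM, Cd72, a B cell and macrophage receptor, 6.3 and 5.61 against 0 and 0.71 TPM, and Clec4a2, a receptor of myeloid cells, 20.18 and 10.08 against 1.47 and 2.26 TPM. The widest gap of all is uncertain. Hist2h2aa2 was at 44.31 and 23.22 TPM in wounded and listed at 0 in both RNase III libraries, while its near-identical copy Hist2h2aa1 had 61.92 and 54.7 against 121.38 and 76.58 TPM; the sums of both, 106.23 and 77.92 against 121.38 and 76.58 TPM, overlapped. Snurf, next in gap, had 24.73 and 14.42 TPM in wounded corneas and was listed at 0 with RNase III. It overlaps Snrpn, so reads can be split between them, and the sums of both, 30.72 and 23.44 against 3.9 and 9.47 TPM, were still separate.

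The largest gaps to higher values included genes of the outer epithelium. Lce3a, of the late cornified envelope, had 10.63 and 4.13 TPM in wounded, 122.85 and 61.2 TPM in RNase III and 133.61 and 60.72 TPM in unwounded corneas (difference 3.51, SE 0.55, adjusted p = 0.242). Klk10 and Klk13, serine proteases of the kallikrein family, had 25.87 and 35.21 against 114.01 and 102.52 TPM and 1.35 and 0.93 against 6.7 and 5.75 TPM. Their unwounded values, 15.2 and 14.11 TPM for Klk10 and 0.52 and 1.3 TPM for Klk13, were at or below the wounded ones. Ceacam1, an adhesion molecule, had 213.55 and 184.67 against 669.39 and 547.97 TPM, and Pglyrp4, which binds bacterial peptidoglycan, 35.5 and 30.79 against 105.89 and 98.05 TPM. Slc5a1, a sodium-glucose transporter, had 23.46 and 14.5 against 69.33 and 65.17 TPM. Il4i1, an amino acid oxidase, had 1.06 and 1.85 against 10.25 and 6.77 TPM, and Nanp, of sialic acid synthesis, 3.65 and 5.73 against 16.79 and 19.53 TPM. Ankk1, Pigz and Esyt3 also had gaps above 2-fold, from 6.41 and 8.1 to 25.45 and 26.07 TPM for Ankk1. Cryga, a lens crystallin, had 0 and 0.34 against 3.29 and 19.19 TPM and belongs with the lens genes described below.

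The stromal matrix was lower with RNase III. Of 15 measured fibrillar and stromal collagens 13 were separate lower (86.7%, against 13.6% of all genes) and none higher, with a median of -1.61. Their transcripts are long (median 5930 bases), so the list ran against the length trend. Col1a1, the main collagen of the stroma, had 179.75 and 199.75 TPM in wounded, 6.78 and 108.33 TPM in RNase III and 257.17 and 219.99 TPM in unwounded corneas. RNase III replicate 1 was far below replicate 2 there, and the difference of -2.71 (SE 1.06, adjusted p = 0.356) was -0.80 without replicate 1. Col5a2, which regulates fibril width, had 33.34 and 31.8 against 3.04 and 12.9 TPM, and Col6a3, of the beaded filaments, 41.35 and 48.81 against 10.07 and 19.49 TPM. The collagen median was -0.96 without replicate 1 and -2.05 without replicate 2. In bulk tissue fewer cells of a type and less RNA per cell cannot be told apart, here and in all that follows.

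Proteoglycans and glycoproteins of the matrix followed the collagens. Of 29 members 17 were separate lower (58.6%, against 13.6% of all genes) and 1 separate higher, with a median of -1.05 that was -0.44 without RNase III replicate 1 and -1.61 without RNase III replicate 2. Lum and Kera, keratan sulfate proteoglycans that space the collagen fibrils of a clear cornea, had 294.46 and 315.72 against 57.64 and 82.66 TPM and 55.69 and 95.92 against 7.98 and 19.96 TPM. Mgp, an inhibitor of calcification, had 885.06 and 610.4 against 61.76 and 184.7 TPM, and Dcn, decorin, 1741.5 and 1153.7 against 463.76 and 573.02 TPM. All 4 genes had separate groups, so leaving out 1 library could not turn their direction. Ecm1 was the exception, with 912.63 and 676.78 TPM in wounded, 1901.6 and 1594 TPM in RNase III and 202.29 and 139.17 TPM in unwounded corneas. Of 16 keratocyte markers 9 were separate lower (56.25%, against 13.6% of all genes) and none higher. Their median of -0.93 was -0.58 without RNase III replicate 1 and -1.44 without RNase III replicate 2.

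Basement membrane genes went both ways. Lama3, a chain of the laminin of surface epithelia, had 130.17 and 79.44 against 214.09 and 227.16 TPM. Col17a1, of the hemidesmosome, had 516.86 and 575.99 against 736.98 and 1044 TPM. Lamc1, a chain of most other laminins, had 44.49 and 32.81 against 10.97 and 17.66 TPM, and Hspg2, perlecan, 50.2 and 41.57 against 16.84 and 26.16 TPM. Of 22 members 5 were separate higher (22.7%, against 27.3% of all genes) and 6 separate lower (27.3%, against 13.6%). The median of -0.38 was 0.09 without RNase III replicate 1, -0.89 without RNase III replicate 2 and -0.13 without wounded replicate 2. Proteases were less even: Mmp2, the gelatinase of stromal cells, had 136.46 and 105.87 against 15.8 and 51.75 TPM, while Mmp3 rested on wounded replicate 1, at 2066 and 330.12 against 250.41 and 361.91 TPM. Of 17 metalloproteinase and inhibitor genes 5 were separate lower (29.4%) and 1 separate higher, with a median of -0.65 that was -0.13 without wounded replicate 1. Serpina3n, a protease inhibitor of the acute phase, had 932.65 and 470.21 against 228.41 and 347.74 TPM. It is in a list of 20 plasminogen and serpin genes. Of these 10 were separate lower (50%, against 13.6% of all genes) and 3 separate higher (15%, against 27.3%). The median of that list was -0.51, and -0.31 without wounded replicate 1, -0.91 without wounded replicate 2 and -0.32 without RNase III replicate 1.

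Most markers of macrophages had lower values with RNase III, with Arg1 and Itgam on the other side. Of 21 measured markers of monocytes and macrophages 16 were separate lower (76.2%, against 13.6% of all genes) and 2 separate higher, with a median of -1.50. Fcgr1, a high-affinity antibody receptor, had 27.7 and 28.98 TPM without and 0.88 and 7.96 TPM with RNase III, and C1qb and C1qc, of the first complement component, 41.02 and 56.55 against 10.67 and 12.7 TPM and 22.13 and 30.97 against 6.39 and 9.06 TPM. Arg1 had 316.67 and 211.63 TPM in wounded, 612.9 and 409.07 TPM in RNase III and 140.37 and 134.24 TPM in unwounded corneas, and its difference was 0.95 (SE 0.28, adjusted p = 0.293). The macrophage median was -1.38 without wounded replicate 1 and -1.09 without RNase III replicate 1. Their transcripts are short (median 1477 bases). Of 7 dendritic cell markers 5 (71.4%), and of 19 complement genes 12 (63.2%), were separate lower, against 13.6% of all genes. None of either list was separate higher, against 27.3% of all genes. These lists share members with others. H2-Aa, H2-Ab1, H2-Eb1 and Cd74, all separate lower, count in both the dendritic and the class II list. C1qa, C1qb and C1qc, also separate lower, count in both the macrophage and the complement list. The median was -1.32 for dendritic cell markers, and -0.77 without RNase III replicate 1 and -2.02 without RNase III replicate 2, and -0.92 for complement, and -0.51 without wounded replicate 1. Of 7 measured T and NK cell markers 5 were separate lower (71.4%, against 13.6% of all genes), among them Thy1 at 9.62 and 11.56 against 2.1 and 3.95 TPM. The median of these markers was -0.98, and -0.61 without RNase III replicate 1. They were low genes: all 20 listed markers summed to 27 and 32.09 TPM without and 13.79 and 16.62 TPM with RNase III. Thy1 alone made up a large part of the wounded sums.

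Neutrophil markers did not separate and turned with 1 library. Of 15 measured members 1 was separate higher (6.67%, against 27.3% of all genes) and 1 separate lower (6.67%, against 13.6%). The median of -0.73 was 0.86 without wounded replicate 1 and -2.16 without wounded replicate 2. S100a9, a calcium-binding protein that neutrophils hold in bulk, had 6352.4 and 297.1 TPM without and 901.16 and 951.68 TPM with RNase III. Both RNase III libraries thus lay between the wounded ones. Pf4, a platelet chemokine, did separate, with 101.16 and 54.84 against 8.92 and 15.55 TPM.

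Most vessel and mural cell genes had lower values. Of 16 endothelial markers 12 were separate lower (75.0%, against 13.6% of all genes) and none higher. Their median of -0.94 was -0.42 without RNase III replicate 1, -1.47 without RNase III replicate 2 and -0.64 without wounded replicate 1. Of 11 markers of pericytes and smooth muscle 9 were separate lower (81.8%) and 1 higher, with a median of -1.04 that was -0.64 without RNase III replicate 1. Vwf, the clotting factor of endothelial cells, had 10.51 and 2.48 TPM without and 0.81 and 0.52 TPM with RNase III. It passed the filter only through the wounded libraries and so had to separate. The same holds for Cnn1, of the pericyte and smooth muscle list, with 5.38 and 2.4 against 0 and 0.24 TPM. The counts above include both genes. Emcn, a sialomucin of capillaries, had 17.2 and 12.01 against 3.49 and 7.71 TPM, and Rgs5, a marker of pericytes, 9.74 and 8.97 against 1.91 and 2.8 TPM. Notch3, a receptor of mural cells, was the separate higher member. The endothelial list has long transcripts (median 3758 bases) and ran against the length trend. Acta2, smooth muscle actin and a marker of myofibroblasts, had 49.53 and 48.13 against 7.59 and 39.99 TPM and rested on RNase III replicate 1. Nerve genes were mixed: S100b had 6.62 and 4.64 against 1.94 and 1.79 TPM and Ngfr, the neurotrophin receptor, 4.41 and 6.32 against 11.49 and 14.37 TPM.

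**Figure D4:**
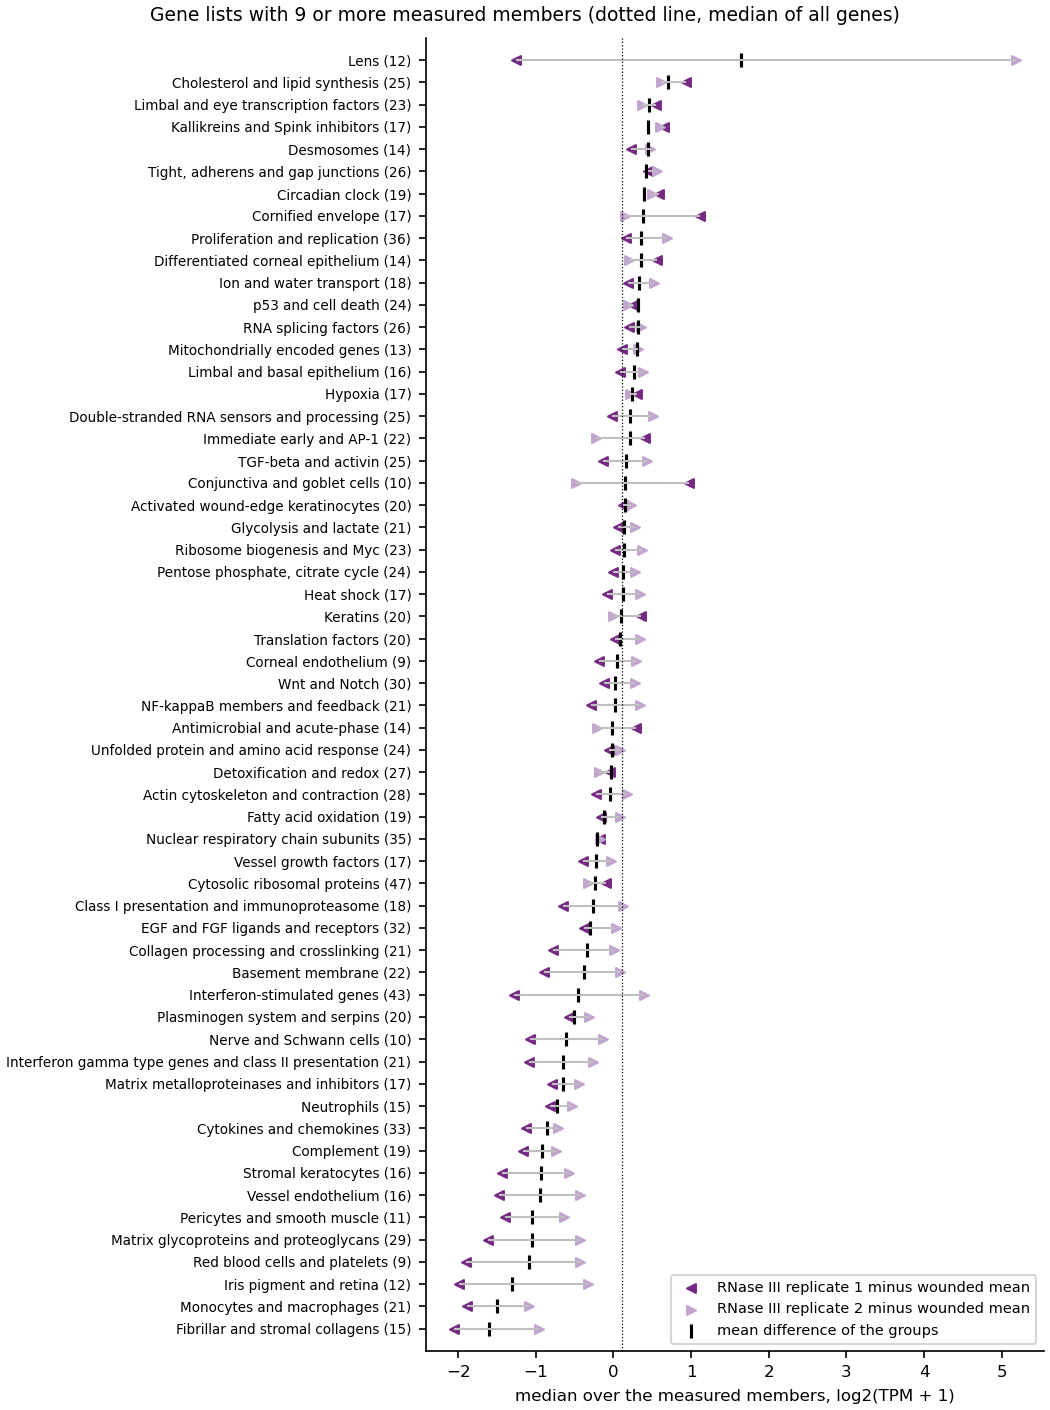
For each gene list with 9 or more measured members (number in brackets), triangles give the median log2(TPM + 1) difference of RNase III replicate 1 (dark) and replicate 2 (light) from the wounded mean, the tick gives the median group difference and the dotted line the median of all genes. Collagens and macrophage markers lie left of 0 in both libraries, interferon-stimulated genes and lens markers lie on opposite sides in the 2 libraries, and cell junctions and cholesterol synthesis lie right of 0 in both.

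Cell-cell contacts of the epithelium had higher values. Of 26 genes of tight, adherens and gap junctions 15 were separate higher (57.7%, against 27.3% of all genes) and 1 separate lower, with a median of 0.41, or 0.29 scaled. Tjp1, the scaffold ZO-1, had 23.13 and 24.18 TPM in wounded, 44.71 and 45.73 TPM in RNase III and 66.59 and 66.82 TPM in unwounded corneas (difference 0.91, SE 0.18, adjusted p = 0.275). Replicates were within 2 TPM of each other in each of the 3 groups. Marveld3, a tight junction membrane protein, had 12.07 and 16.82 against 27.62 and 28.92 TPM, and Ctnnd1, p120 catenin, 71.99 and 70.8 against 106.64 and 130.46 TPM. Of 14 desmosome genes 9 were separate higher (64.3%) and none lower, with a median of 0.45, which was 0.23 without RNase III replicate 2, and long transcripts (median 5001 bases). Dsg3, a desmosomal cadherin of basal layers, had 120.94 and 116.99 against 174.58 and 238.1 TPM, and Ppl, periplakin, 85.55 and 159.16 against 255.17 and 212.82 TPM.

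Many proteases of the epithelial surface had higher values as well. Of 17 kallikreins, membrane serine proteases and their inhibitors 12 were separate higher (70.6%, against 27.3% of all genes) and 1 lower, with a median of 0.45 that was 0.73 without wounded replicate 2. The list has short transcripts (median 1895 bases) and so ran against the length trend. The separate lower member was Spink2, a trypsin inhibitor, with 4.36 and 3.2 against 0.3 and 0.61 TPM. Spink2 passed the filter only through the wounded libraries and so had to separate. Cornified envelope genes were near the background by count, with 6 of 17 separate higher (35.3%) and none lower. Their median was 1.12 in RNase III replicate 1 and 0.15 in replicate 2, and it was 1.59 without wounded replicate 1 and 0.07 without wounded replicate 2. Cnfn, cornifelin, had 173.93 and 113.85 against 686.83 and 244.07 TPM.

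Few keratins separated, while transcription factors of the epithelium leaned to higher values. Of 20 measured keratins 3 were separate higher (15%, against 27.3% of all genes) and 1 lower, with a median of 0.10. That median was -0.17 without wounded replicate 1, 0.48 without wounded replicate 2, 0.00 without RNase III replicate 1 and 0.36 without RNase III replicate 2. Krt80 and Krt23 were separate higher, at 40.84 and 103.25 against 242.88 and 188.46 TPM and 18.63 and 27.59 against 57.47 and 49.85 TPM. Krt5, the basal keratin, had 10147 and 11777 against 9841.1 and 9192.9 TPM, groups that were only 0.04 apart. Of 23 limbal and eye transcription factors 11 were separate higher (47.8%, against 27.3% of all genes) and 1 lower, with a median of 0.45 that was 0.24 without wounded replicate 1. Klf4 and Ehf, regulators of epithelial differentiation, had 119.43 and 243.01 against 310.64 and 294.78 TPM and 46.4 and 77.32 against 109.2 and 98.37 TPM. Gpha2, a marker of limbal stem cells, stood apart from them: it had 510.96 and 436.96 TPM in wounded, 108.93 and 150.6 TPM in RNase III and 343.68 and 287.57 TPM in unwounded corneas (difference -1.88, SE 0.22, adjusted p = 0.226). Itgb4 and Itga6, the integrin of the hemidesmosome, were separate higher, at 154.6 and 123.29 against 225.24 and 274.05 TPM and 406.85 and 315.94 against 550.29 and 555.26 TPM. Gpha2, Itgb4 and Itga6 are in a list of limbal and basal epithelium markers that was near the background. Of 16 measured members 5 were separate higher (31.25%, against 27.3% of all genes) and 2 lower (12.5%, against 13.6%). The median of that list was 0.26, and 0.08 without RNase III replicate 2.

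Cholesterol synthesis had the highest median among lists with no lens genes. All 25 measured genes were higher and 14 were separate higher (56.0%, against 27.3% of all genes), with a median of 0.71. Sc5d, an enzyme of the last steps, had 64.83 and 122.76 against 182.82 and 176.07 TPM. Wounded replicate 1 was the lowest library for Sc5d, and without it the list median was 0.30; it was 1.26 without wounded replicate 2. Insig1, the sterol sensor, rested on wounded replicate 1, with 20.18 and 69.41 against 160.93 and 58.6 TPM. The list has long transcripts (median 4299 bases).

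Genes of the ribosome and the respiratory chain had slightly lower values. Of 47 cytosolic ribosomal protein genes 20 were separate lower (42.6%, against 13.6% of all genes) and 1 higher, with transcripts of 1120 bases at the median. Scaled, 9 were separate lower (19.1%, against 19.8%) and none higher. The median of -0.23 was -0.09 without RNase III replicate 2. Rpl38 had 2655.1 and 2301.9 against 1831 and 1273.5 TPM and Rplp1 7968.9 and 7082.2 against 6701.4 and 4862.7 TPM. Of 35 nuclear genes of the respiratory chain 11 were separate lower (31.4%, against 13.6% of all genes) and none higher, with transcripts of 1410 bases at the median. Their median of -0.21 was -0.02 without wounded replicate 2 and -0.34 without wounded replicate 1. Scaled, 20 were separate lower (57.1%, against 19.8% of all genes) and 1 higher (2.86%, against 21.3%). The mitochondrial genome went both ways, with mt-Co2 at 995.16 and 1059.2 against 436.56 and 222.76 TPM and mt-Atp8, a very short gene, at 9770.4 and 14643 against 21468 and 41006 TPM. Mgst1, a glutathione transferase of membranes, had 80.78 and 92.38 against 40.57 and 42.8 TPM, and Gsto1, a soluble one, 7313.7 and 10107 against 19102 and 12647 TPM. Pgam1 and Tpi1, of glycolysis, were separate higher, at 390.5 and 344.69 against 533.51 and 569.07 TPM and 510.81 and 500.95 against 736.5 and 708.52 TPM.

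Clock genes went both ways, and most were higher. Arntl, the activator also known as Bmal1, had 17.37 and 19.64 TPM in wounded, 5.86 and 9.33 TPM in RNase III and 23.65 and 31.62 TPM in unwounded corneas. Tef, an output factor with the E-box shown above, had 7.75 and 15.72 against 35.92 and 28.36 TPM, and Nr1d1, a repressor of Arntl, 19.39 and 16.87 against 41.77 and 26.55 TPM. The difference was -1.21 (SE 0.29) for Arntl, 1.44 (SE 0.33) for Tef and 0.85 (SE 0.28) for Nr1d1. Of 19 clock genes 10 were separate higher (52.6%, against 27.3% of all genes) and 2 lower, with a median of 0.40 that was 0.22 without wounded replicate 1. The labels give no time of day.

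Signalling and stress genes were mixed, with a few clear separations. Smad2 and Smad4, carriers of the TGF-beta signal, had 21.59 and 23.23 against 45.03 and 48.07 TPM and 20.24 and 30.21 against 45.16 and 48.06 TPM, while the ligand Tgfb3 had 10.02 and 9.61 against 1.8 and 5.16 TPM. Igfbp6, which binds insulin-like growth factor II, had 35.09 and 19.55 against 4.62 and 6.87 TPM, and the receptor gene Fgfr3 10.21 and 11.62 against 33.48 and 18.32 TPM. Sfrp2, a Wnt antagonist of fibroblasts, had 2.21 and 2.4 against 0.33 and 0.4 TPM. In each of these 6 genes the groups were separate, 3 in each direction, but the naming rule takes the largest gaps of each list. Of 25 TGF-beta and activin genes 8 were separate higher (32%, against 27.3% of all genes) and 3 lower (12%, against 13.6%). Of 32 EGF and FGF genes 7 were separate higher and 7 lower (21.9% each way). Of 30 Wnt and Notch genes 9 were separate higher (30%) and 6 lower (20%). Sfrp2 passed the filter only through the wounded libraries, so its separation was fixed in advance. Nr4a1, an immediate early gene, had 16.2 and 13.27 against 6.16 and 6.65 TPM, Klf6 45.31 and 44.32 against 78.09 and 71.29 TPM, and Bnip3l, a mitophagy receptor induced by hypoxia, 62.15 and 85.3 against 154.13 and 131.2 TPM. Of 36 proliferation genes 8 were separate higher (22.2%) and 1 lower, a share below the 27.3% of all genes, and their median of 0.36 was -0.05 without wounded replicate 1, 0.84 without wounded replicate 2, 0.69 without RNase III replicate 1 and 0.16 without RNase III replicate 2.

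Genes of neighbouring tissues varied between libraries. Cryaa, a lens crystallin, had 0.71 and 87.88 TPM without and 1.07 and 1281.2 TPM with RNase III, so replicate 2 was the higher library in both groups. Of 12 measured lens markers 10 were higher by 2-fold or more, against 2.77% of all genes, and 9 of these rested on RNase III replicate 2. The list median was 1.64, and -1.26 without that library and 5.18 without RNase III replicate 1. It was 3.50 without wounded replicate 2 and 0.22 without wounded replicate 1. Of 12 pigment and retina markers 8 were lower by 2-fold or more, against 4.75% of all genes, and 4 of them rested on RNase III replicate 1. Their median of -1.31 was -0.33 without RNase III replicate 1 and -1.98 without RNase III replicate 2. It was -2.10 without wounded replicate 1 and -0.55 without wounded replicate 2. Rpe65, of the pigment epithelium, had 2.98 and 7.04 against 0.5 and 0.68 TPM. It passed the filter only through the wounded libraries and so had to separate. Pmel, a pigment granule protein, had 72.48 and 172.97 against 8.48 and 111.76 TPM and did not separate.

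Differences that rest on 1 library were counted as those of 2-fold or more that came under 0.5 on the log2 scale, or turned, when a library was left out. There were 300 such genes among 1028, or 29.2%, of which 97 were higher (0.709% of all genes) and 203 lower (1.48%). RNase III replicate 1 carried 151 of them, 37 higher and 114 lower. Wounded replicate 1 carried 91, RNase III replicate 2 carried 35 and wounded replicate 2 carried 23. Of the 151 genes that rested on RNase III replicate 1, 53 had separate groups all the same, so separation alone did not show that a difference was shared by both replicates.

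**Figure D5:**
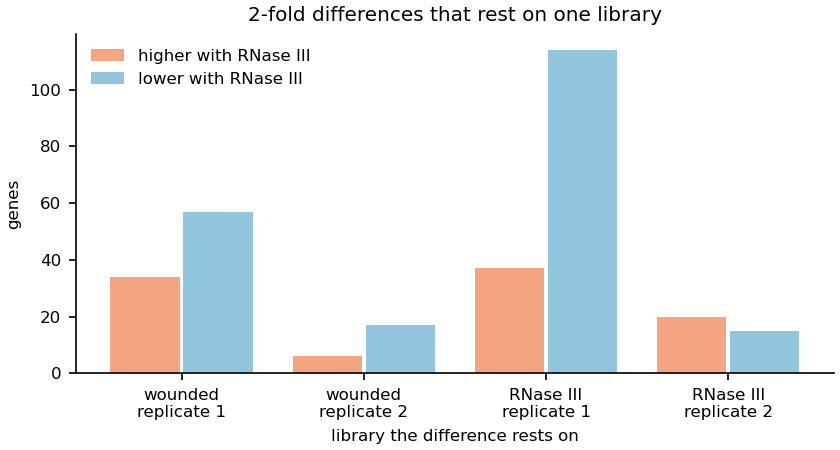
Bars count the genes with a 2-fold mean difference that rests on the named library, split by direction. RNase III replicate 1 carries 114 lower and 37 higher genes, more than the other 3 libraries together in the lower direction.

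The genes behind these counts differed by library. On RNase III replicate 1 rested Ms4a4c, a membrane protein of immune cells, with 51.42 and 75.31 against 1.16 and 53.61 TPM, and Ccdc191, with 2.49 and 2.63 against 85.93 and 3.61 TPM. On wounded replicate 1 rested the inflammatory genes Il1b, with 1008.7 and 164.43 against 77.44 and 183.75 TPM, and Ccl4, with 478.24 and 51.66 against 40.76 and 41.83 TPM. In both, wounded replicate 1 stood above the other 3 libraries. On wounded replicate 2 rested the photoreceptor genes Nrl, with 4.19 and 23.19 against 1.45 and 7.27 TPM, and Rom1, with 10.34 and 31.13 against 5.7 and 8.64 TPM, and in the other direction Sprr2d, a cornified envelope gene, with 16.86 and 1.63 against 16.71 and 20.67 TPM. On RNase III replicate 2 rested the crystallin gene Crybb3, with 1.78 and 21.8 against 7.61 and 317.35 TPM, and Sap25, with 3.97 and 6.5 against 4.28 and 0.37 TPM.

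Without RNase III replicate 2, limma called 14 genes lower at an adjusted p under 0.05, with the 1 remaining RNase III library assumed to vary like the other groups. Col1a1, Col3a1, Col5a2, Postn (periostin), Ly6c2 (of inflammatory monocytes), Ccl7, Acta2 and Ttr were among the 14. Without RNase III replicate 2 the 2-fold differences numbered 632 higher and 1404 lower, and without RNase III replicate 1 they numbered 626 higher and 417 lower. Without wounded replicate 2 they numbered 895 higher and 825 lower, and without wounded replicate 1 337 higher and 773 lower. The excess of lower genes at 2-fold was thus not seen without RNase III replicate 1 or without wounded replicate 2.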

How the data were processed

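Total RNA of mouse corneas was sequenced in 6 libraries, 2 each of unwounded, wounded and wounded corneas with RNase III. The deposited values are TPM, a length-corrected share of each library; the submitters' processing notes list STAR, RSEM, DESeq2 and mm10, without versions or roles. Depth cannot be recovered from TPM. Genes were kept when 2 or more of the 4 wounded libraries reached 1 TPM. log2(TPM + 1) was fitted with limma 3.58.1 in R 4.3.3, as group means of all 6 libraries with a mean-variance trend, two-sided, with Benjamini-Hochberg adjustment over all 13672 genes. A fold on this scale understates the change of low genes. The procedure was tested on simulated data. Groups were called separate when they did not overlap. Coordinates are from GENCODE vM21 on GRCm38 and promoters from RefSeq on GRCm38.p6; the annotation version behind the deposited table is not given in the sources used here, and 54409 gene IDs matched a symbol. Named genes are Ifnb1, Mmp13 and Tlr3, the 12 largest gaps in each direction, the 3 largest differences in each direction resting on each library, and of each list the 3 largest gaps and the 2 highest levels. Members and lists were chosen with earlier results of these data known. Alternatives were a pseudocount of 0.1, no filter, a filter of 5 TPM, median-of-ratios scaling, a fit of the 4 wounded libraries alone, a replicate block and each library left out. Some genes that the naming rule selects are not reported here.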

Additional observations from a re-analysis of the deposited data

How the results depend on the processing

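With a pseudocount of 0.1, limma called 1 gene lower (Hist2h2aa2), the 2-fold gaps numbered 101 higher and 245 lower, the 2-fold differences 626 and 1170, and those resting on 1 library 179 and 500. With no filter, 3501 genes were separate lower and 165 higher genes rested on 1 library. With a filter of 5 TPM, 1208 genes were separate lower, the 2-fold gaps were 34 and 84, 400 genes were lower by 2-fold and 134 of the lower genes rested on 1 library. Scaling gave 1004 lower genes at an unadjusted p under 0.05, and the 4 wounded libraries alone gave 590 higher ones. A limit of 0.25 left 52 higher and 106 lower genes resting on 1 library. Leaving out each library in turn gave 569 to 1745 higher and 461 to 1465 lower genes at an unadjusted p under 0.05, 337 to 895 higher and 417 to 1404 lower at 2-fold, and 0 to 14 called lower. The replicate numbers share no stated source, and same-numbered wounded and RNase III libraries did not deviate together (correlation -0.05 across genes). A replicate block gave 1158 higher and 700 lower genes at an unadjusted p under 0.05 and 0 called. Some named genes turned. Krt12 was at -0.11 scaled; over the fits without 1 library Krt12 ran from -0.30 to 0.33, Cryaa from -2.57 to 6.70, Cxcl3 from -0.88 to 0.60, S100a9 from -2.78 to 1.64 and Rsad2 from -2.34 to 0.17. The cause of these shifts was not tested. With 2 libraries a group and no counts, small differences and genes near 1 TPM cannot be resolved.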
